A study of Rattus norvegicus with 6 samples.

Results

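Genes of cell division and DNA replication were examined in cultured rat mesenchymal stromal cells, which stick to plastic and can be grown from blood as well as from bone marrow. The genes were fixed by symbol: 11 replication genes (Mcm2 to Mcm7, Pcna, Rrm1, Rrm2, Tyms and Tk1), the 2 G1/S cyclins Ccne1 and Ccne2, and 21 mitotic genes. This choice was made with earlier results of these data known. Of these 34 genes, 26 had a probe set under their own symbol, 33 probe sets in all, among 10411 named genes on the array. No probe set carried the single symbol of Ccna2, Bub1, Rrm2, Kif11, Kif23, Cenpf, Nusap1 or Prc1, and these 8 genes were not analysed here.

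All cultures came from 3 GFP transgenic rats named S4, S5 and S6. Each rat gave 1 culture of peripheral blood derived cells and 1 of bone marrow derived cells, which makes 2 groups of 3 arrays paired by rat. Both kinds of culture were grown in the same medium with 15% fetal bovine serum, and total RNA was taken from passage 2 cells. The sources used here give neither the promoter of the GFP transgene, the age and sex of the rats, nor the density of the cultures when RNA was taken. Each rat gave 1 array of each kind, so the spread of the differences is that between 3 animals.

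Before a cell divides it copies its genome once. The Mcm2 to Mcm7 proteins form the ring-shaped helicase that is loaded on replication origins, Pcna is the sliding clamp of the DNA polymerases, and Rrm1, Tyms and Tk1 supply deoxynucleotides. Transcription of these genes peaks around the entry into S phase and is driven by E2F factors. The mitotic genes peak later, in G2 and M phase, and encode the kinase and cyclins that start mitosis, the kinases of the spindle and its checkpoint, the ubiquitin enzymes that end mitosis, and spindle motors. Their promoters are known for CCAAT boxes and for the cell cycle genes homology region (CHR), through which the DREAM and MuvB complexes act. In resting cells both groups are low, and a bulk RNA level cannot tell fewer dividing cells from less RNA per dividing cell.

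Division genes were mostly lower in blood cultures than in marrow cultures of the same rat, least so in rat S6. The amount was small and did not pass the test for any gene. The mean difference, blood minus marrow in log2 units, was below 0 for 24 of 26 genes, against 50.7% of all 15791 probe sets with complete values. Of the mitotic genes 14 of 14 lay below 0, of the G1/S cyclins 2 of 2 and of the replication genes 8 of 10. These 3 counts were the same after each of 3 other scalings of the arrays. By single rat, 21, 25 and 16 of the 26 genes lay below 0 in rats S4, S5 and S6, with medians of -0.32, -0.545 and -0.115. In rat S6 only 5 of 10 replication genes and 9 of 14 mitotic genes did. The medians of all probe sets in these rats were 0.05, -0.06 and -0.01. The median difference was -0.34 for mitotic, -0.53 for G1/S cyclin and -0.20 for replication genes, where the median of all probe sets was -0.01. All these genes were read on the same 6 arrays, so they are not independent of each other.

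**Figure D1:**
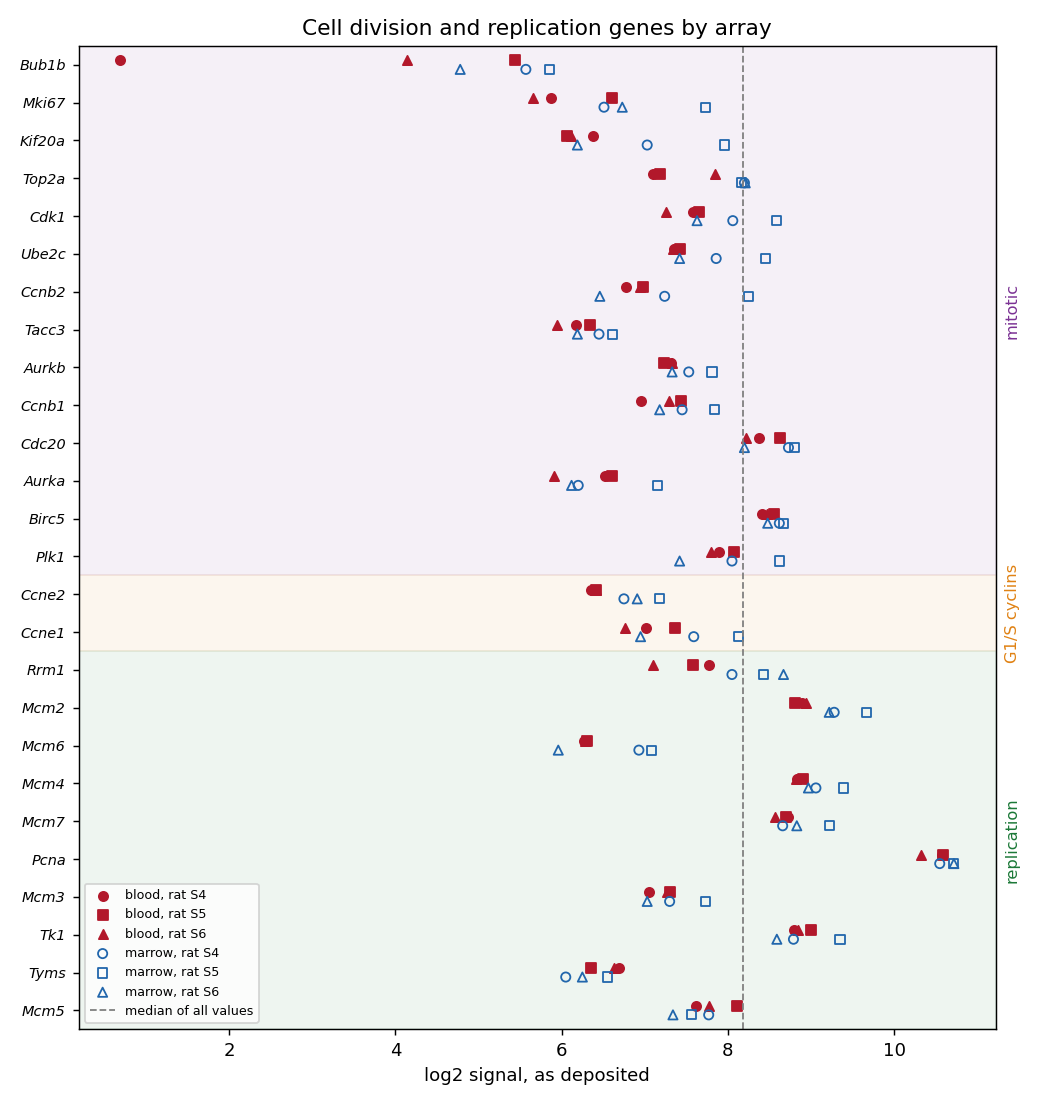
Log2 signal of each of 26 genes (rows, grouped by class) on each array. Filled red symbols are blood cultures, open blue symbols marrow cultures, and the symbol shape gives the rat. The dashed line is the median of all values in the table, 8.18. Most genes lie left of that line, and open blue squares (marrow, rat S5) are the rightmost symbol in 22 of 26 rows.

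Differences within rats were tested with limma, and p-values were adjusted by the Benjamini-Hochberg method over all probe sets tested. A probe set entered the test if at least 3 of 6 arrays exceeded 8.18, the median of the whole table on the log2 scale. Only 7 of the 26 genes passed that filter, namely Mcm2, Mcm4, Mcm7, Pcna, Tk1, Cdc20 and Birc5, and the other 19 were dim on most arrays. At an adjusted p of 0.05, 0 of these 7 genes were called, where 2.15% of 8134 tested probe sets were. At an unadjusted p under 0.05 the count was 1 of 7 (Mcm2), against 14.1% of tested probe sets. A limma fit without the filter, which covers all 26 genes, also called 0, against 0.517% of 15859 probe sets. In it 7 of 26 genes were lower in blood cultures at an unadjusted p under 0.05 and 0 were higher, where the shares of all probe sets were 5.86% and 5.36%. This count in either direction was 5 without rat S4, 3 without rat S5, 10 without rat S6 and 5 without the rat as a term. For these other fits the shares of all probe sets were not counted. The 5.86% and 5.36% belong to the fit with all rats, so whether these counts are unusual cannot be told. Adjusted p and SE of the 7 genes below are from the filtered fit and those of the other 19 from the unfiltered fit, in which the smallest adjusted p of any of them was 0.126. Every SE and interval is the moderated one of limma, which borrows variance from all probe sets of the fit. It is therefore not the SE of the 3 rat differences alone. Levels under 8.18 have no known background, so their differences are approximate.

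The promoters of mitotic genes are shown first, since the mean differences of these genes all lay on one side. RefSeq entries for the promoter, 250 bases before to 50 after the annotated start on build GRCr8, were found for 28 of 34 genes and 22 of the 26 on the array. The CHR was searched as TTTGAA and the CCAAT box as CCAAT, each on both strands. A CHR match was present in 9 of 12 mitotic promoters of genes on the array and in 18.3% of all 33469 promoters of the same length. A CCAAT match was present in 10 of 12, against 37.5% of all. Below are the 150 bases before the start of 4 mitotic genes with both motifs, 5′ to 3′ on the gene's strand, with every match of CHR, CCAAT and the E2F site described later in capitals. They lie at chr1:199952594-199952743 (minus strand) for Mki67, chr10:84473094-84473243 (minus strand) for Top2a, chr20:19265143-19265292 (plus strand) for Cdk1 and chr8:79981659-79981808 (minus strand) for Ccnb2. They show the spacing of the motifs near the start.
Mki67: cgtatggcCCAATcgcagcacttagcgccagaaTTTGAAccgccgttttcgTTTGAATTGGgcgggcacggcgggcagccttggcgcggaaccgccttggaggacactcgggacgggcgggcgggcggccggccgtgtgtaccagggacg
Top2a: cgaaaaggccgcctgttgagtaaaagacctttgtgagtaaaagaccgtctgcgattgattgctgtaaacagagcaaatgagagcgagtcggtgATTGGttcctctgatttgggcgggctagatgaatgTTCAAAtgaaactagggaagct
Cdk1: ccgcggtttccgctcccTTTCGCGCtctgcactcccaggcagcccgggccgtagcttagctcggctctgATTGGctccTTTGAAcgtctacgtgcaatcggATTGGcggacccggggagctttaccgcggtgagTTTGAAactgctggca
Ccnb2: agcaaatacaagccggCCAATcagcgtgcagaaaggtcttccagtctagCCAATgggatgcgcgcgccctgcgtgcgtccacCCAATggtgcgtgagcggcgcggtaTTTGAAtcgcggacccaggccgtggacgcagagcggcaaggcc

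Counted from the start, the 3 CCAAT boxes of Ccnb2 began at -134, -101 and -68 and the nearer CHR at -43. In Cdk1 a CHR began at -16, and an E2F match at -133, the only one among mitotic promoters searched. In Top2a the CHR was on the opposite strand, read as TTCAAA, at -22. In Mki67 the second CHR overlaps a CCAAT box on the opposite strand by a single base. No CHR match was found in these windows for Ccnb1, Aurka or Kif20a. A match is a description of the letters only, and occupancy was not measured.

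Mki67 encodes the Ki-67 protein that coats mitotic chromosomes and is the common marker of cycling cells. Its log2 signal was 6.51, 7.73 and 6.73 in marrow cultures of rats S4, S5 and S6 and 5.87, 6.61 and 5.65 in blood cultures. Each blood culture differed from its own marrow culture by -0.64, -1.12 and -1.08, although the blood culture of rat S5 lay above the marrow culture of rat S4. The difference of -0.95 ± 0.16 (moderated SE of limma, n = 3 rats) had an adjusted p of 0.126 in limma, the smallest among the genes.

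Top2a encodes the topoisomerase that untangles sister chromosomes. It stood at 8.20, 8.16 and 8.21 in marrow cultures and at 7.10, 7.19 and 7.85 in blood cultures of rats S4, S5 and S6. All blood arrays were below all marrow arrays on this probe set, with a difference of -0.81 ± 0.19 (limma adjusted p = 0.234). The other Top2a probe set showed differences of -0.12, -0.65 and 0.03 in the same rats, so the separation was seen on 1 of 2 probe sets.

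Cdk1, the kinase that drives entry into mitosis, was at 8.06, 8.59 and 7.63 in marrow and 7.58, 7.65 and 7.26 in blood cultures. It was lower in the blood culture of each rat, but the groups overlapped at the marrow culture of rat S6. The difference was -0.60 ± 0.16 (limma adjusted p = 0.296). Its partner cyclins showed less: Ccnb1 was at 7.45, 7.84 and 7.18 in marrow and 6.96, 7.44 and 7.29 in blood cultures. The rats did not share a direction for Ccnb1, at -0.49, -0.40 and 0.11, and its mean of -0.26 ± 0.17 had a limma adjusted p of 0.692. For Ccnb2 the differences were -0.46, -1.27 and 0.48, so it also had rat S6 on the other side of 0.

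Genes that act at the end of mitosis were led by Kif20a and Ube2c. Kif20a, a kinesin needed for cytokinesis, was at 7.03, 7.96 and 6.19 in marrow and 6.38, 6.07 and 6.11 in blood cultures. The marrow values spread over nearly the whole range while the blood values lay close together, the groups overlapped, and rat S5 gave the widest difference, -1.89, against -0.65 and -0.08 in rats S4 and S6. Ube2c, the ubiquitin enzyme of the anaphase-promoting complex, was at 7.86, 8.45 and 7.42 in marrow and 7.35, 7.42 and 7.34 in blood cultures. Here too the blood arrays were alike and the marrow arrays spread, with the blood culture of rat S5 level with the marrow culture of rat S6. The differences of Kif20a and Ube2c were -0.87 ± 0.36 and -0.54 ± 0.21 (limma adjusted p = 0.481 and 0.455).

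Tacc3, a spindle protein that acts with Aurka at microtubules, differed by -0.28, -0.27 and -0.24 in the 3 rats, the most even differences among the mitotic genes. Its levels were 6.45, 6.61 and 6.19 in marrow and 6.17, 6.34 and 5.95 in blood cultures, so the groups overlapped, and the limma adjusted p was 0.533. Bub1b, a kinase-like protein of the spindle checkpoint, had the largest mean difference, -1.98 ± 0.94, and it rests on 1 array. Its values were 5.57, 5.85 and 4.78 in marrow and 0.69, 5.44 and 4.14 in blood cultures. The blood culture of rat S4 stood far below the other 5 arrays, whereas rats S5 and S6 differed by -0.41 and -0.64 (limma adjusted p = 0.545 with all rats).

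The remaining mitotic genes had mean differences of less than 0.3 in size. The kinases Aurkb, Aurka and Plk1, which act at the centromere, the spindle poles and throughout mitosis, had mean differences of -0.26, -0.14 and -0.11. In the rat order S4, S5, S6 Aurkb differed by -0.21, -0.58 and 0, Aurka by 0.32, -0.54 and -0.21, and Plk1 by -0.16, -0.55 and 0.38. Rat S5 had the lowest difference for each, and none of these kinases was below 0 in every rat. Cdc20, the activator of the anaphase-promoting complex, differed by -0.17 ± 0.13 on its brightest probe set (limma adjusted p = 0.693). The other 4 probe sets of Cdc20 differed by -0.08 to 0.07. Birc5, or survivin, differed by -0.11 ± 0.12, with a 95% interval of -0.41 to 0.19. Cdc20 and Birc5 were the only mitotic genes bright enough for the filtered test.

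The G1/S cyclins activate the kinase Cdk2 at the start of S phase. Ccne1 was at 7.59, 8.13 and 6.95 in marrow and 7.02, 7.36 and 6.76 in blood cultures, and Ccne2 at 6.75, 7.18 and 6.91 and at 6.35, 6.42 and 6.42. Both were lower in the blood culture of every rat. All blood arrays were below all marrow arrays for Ccne2 but not for Ccne1. The differences were -0.51 ± 0.16 and -0.55 ± 0.14 (limma adjusted p = 0.361 and 0.264).

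**Figure D2:**
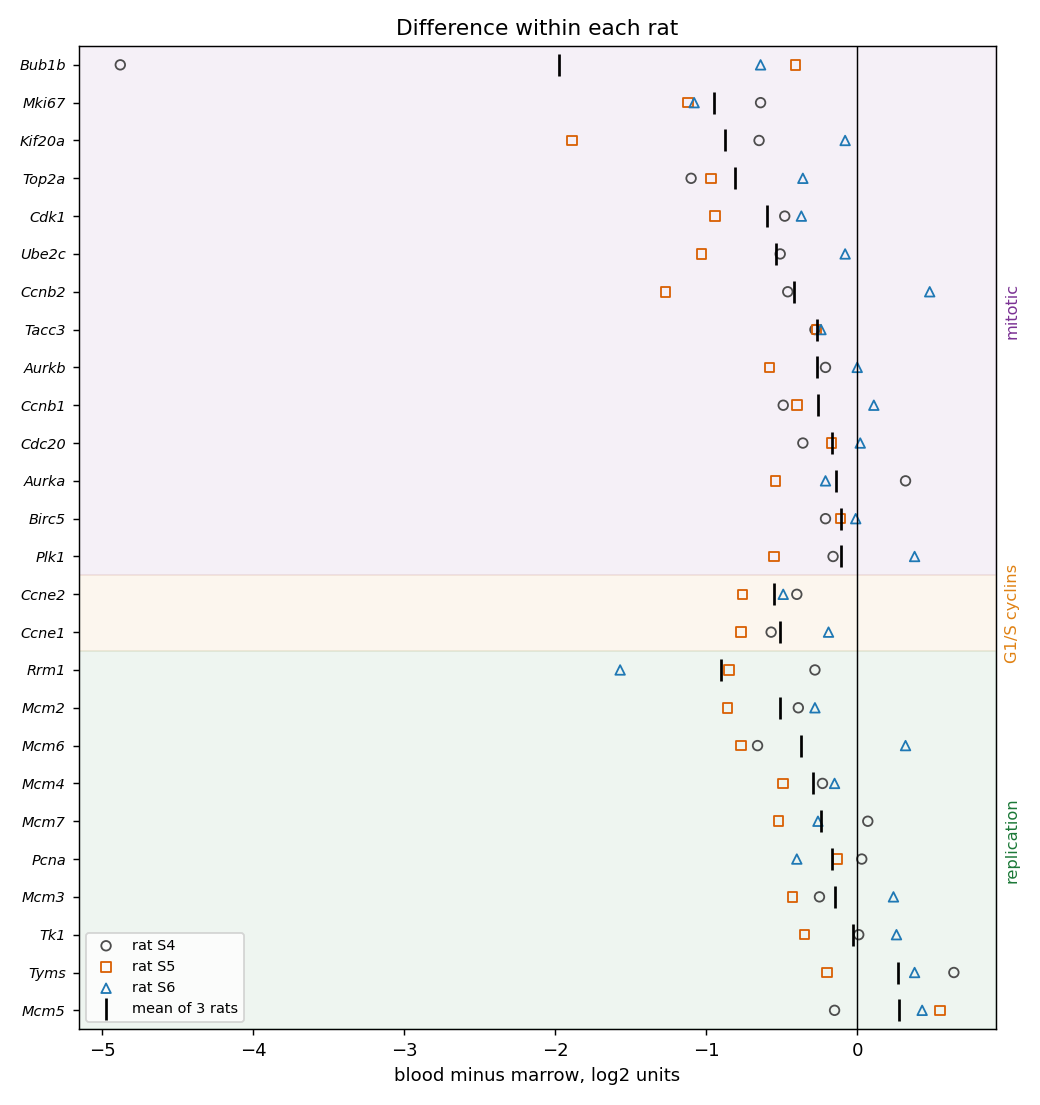
Blood minus marrow difference in log2 units within each rat (open symbols) and the mean of 3 rats (black bar) for each gene, grouped by class. Bars of 24 genes lie left of 0, and orange squares (rat S5) are left of 0 in 25 of 26 rows. The single point near -4.9 is Bub1b in rat S4.

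Promoters of replication genes carried another motif. The E2F site was searched as TTTCCCGC, TTTGGCGC and TTTCGCGC on both strands, and matches of one spelling can overlap those of another. It was present in 6 of 9 replication promoters (Mcm2, Mcm3, Mcm5, Mcm6, Mcm7 and Tyms), against 1.72% of all promoters. A CHR match was present in 1 of 9, Mcm2, and CCAAT in 6 of 9. The 150 bases before the start of 4 replication genes with an E2F match in that stretch are given in the same way. They lie at chr4:122918095-122918244 (minus strand) for Mcm2, chr13:42404353-42404502 (minus strand) for Mcm6, chr12:22163179-22163328 (minus strand) for Mcm7 and chr9:120776084-120776233 (minus strand) for Tyms. They let the E2F sites be compared with the CHR of the mitotic genes above.
Mcm2: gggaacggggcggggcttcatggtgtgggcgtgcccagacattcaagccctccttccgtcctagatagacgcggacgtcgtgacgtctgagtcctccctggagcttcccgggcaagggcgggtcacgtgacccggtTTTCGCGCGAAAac
Mcm6: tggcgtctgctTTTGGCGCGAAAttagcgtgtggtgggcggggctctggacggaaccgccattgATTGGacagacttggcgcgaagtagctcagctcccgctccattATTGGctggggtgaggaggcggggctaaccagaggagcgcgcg
Mcm7: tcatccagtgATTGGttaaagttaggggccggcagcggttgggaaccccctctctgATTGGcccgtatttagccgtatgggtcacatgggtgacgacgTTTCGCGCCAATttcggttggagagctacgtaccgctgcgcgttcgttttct
Tyms: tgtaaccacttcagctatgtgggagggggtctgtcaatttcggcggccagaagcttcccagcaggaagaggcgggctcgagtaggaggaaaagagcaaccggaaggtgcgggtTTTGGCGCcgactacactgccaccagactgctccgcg

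In Mcm2 and Mcm6 a match on each strand overlapped to form 1 run, beginning at -14 and -139. In Mcm7 the match nearer the start, at -52, runs into a CCAAT box.

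Mcm2, a subunit of the replicative helicase, was at 9.28, 9.67 and 9.22 in marrow cultures of rats S4, S5 and S6 and at 8.89, 8.81 and 8.94 in blood cultures. All blood arrays were below all marrow arrays, and the difference of -0.51 ± 0.16 had a 95% interval of -0.90 to -0.12 and a limma adjusted p of 0.226. Mcm4, another helicase subunit, was at 9.06, 9.39 and 8.97 in marrow and 8.83, 8.90 and 8.82 in blood cultures. Its groups did not overlap either, with a difference of -0.29 ± 0.13 (limma adjusted p = 0.412). For Mcm7 the 3 rats gave 0.07, -0.52 and -0.26 in that order.

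The helicase subunits below the filter did not share a direction across rats. Mcm6 differed by -0.66, -0.77 and 0.32, and Mcm3 by -0.25, -0.43 and 0.24. Mcm5 was at 7.77, 7.56 and 7.34 in marrow and 7.62, 8.11 and 7.77 in blood cultures. It was higher in the blood culture of rats S5 and S6 and lower in that of rat S4, with overlapping groups and a difference of 0.28 ± 0.18 (limma adjusted p = 0.698). The subunits of this 1 complex thus had mean differences on both sides of 0.

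Pcna was at 10.55, 10.72 and 10.72 in marrow and 10.58, 10.59 and 10.32 in blood cultures. The groups overlapped, and the difference of -0.17 ± 0.14 had a 95% interval of -0.51 to 0.17 (limma adjusted p = 0.714). Rrm1, the large subunit of ribonucleotide reductase, had the largest difference among replication genes. It was at 8.05, 8.43 and 8.67 in marrow and 7.77, 7.58 and 7.10 in blood cultures. All blood arrays lay below all marrow arrays, and here rat S6, at -1.57, had the widest difference (mean -0.90 ± 0.27, limma adjusted p = 0.325).

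Tyms, thymidylate synthase, was at 6.05, 6.55 and 6.25 in marrow and 6.69, 6.35 and 6.63 in blood cultures. It was higher in blood cultures of rats S4 and S6 and lower in that of rat S5, with a mean of 0.27 ± 0.20 (limma adjusted p = 0.733). Tk1, thymidine kinase, differed by -0.03 ± 0.16 on its brighter probe set and by 0.19 ± 0.12 on the other, which was higher in the blood culture of each rat (limma adjusted p = 0.977 and 0.582). The genes of nucleotide supply therefore did not share a direction.

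Over the 26 genes, 13 were lower in the blood culture of every rat, against 17.1% of all probe sets, and 0 were higher in every rat, against 14.5%. The gene counts use 1 probe set per gene, and the dimmer Tk1 probe set, which they leave out, was higher in every rat. For 5 genes, Top2a, Ccne2, Mcm2, Mcm4 and Rrm1, all blood arrays were below all marrow arrays, against 9.39% of all probe sets. No gene had all blood arrays above all marrow arrays, against 6.95%, and the groups overlapped for the other 21. Among the 7678 probe sets below the filter, where 19 of these genes lay, the shares were 49.9% for a mean below 0, 14.9% for lower in every rat and 7.35% for all blood arrays below all marrow arrays. The lower counts came to 8 of 14 mitotic, 2 of 2 G1/S cyclin and 3 of 10 replication genes. Rat by rat, in the order S4, S5, S6, the median differences of mitotic genes were -0.47, -0.565 and -0.08, and those of replication genes -0.19, -0.46 and 0.045. Replication genes were thus nearer to 0 or on the other side of it in each rat, by 0.28, 0.105 and 0.125. The classes also differed in brightness, since 5 of 10 replication genes and 2 of 14 mitotic genes passed the filter. With 50 added to the linear signal the medians were -0.19 for replication and -0.27 for mitotic genes. The gap between the classes was not tested.

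**Figure D3:**
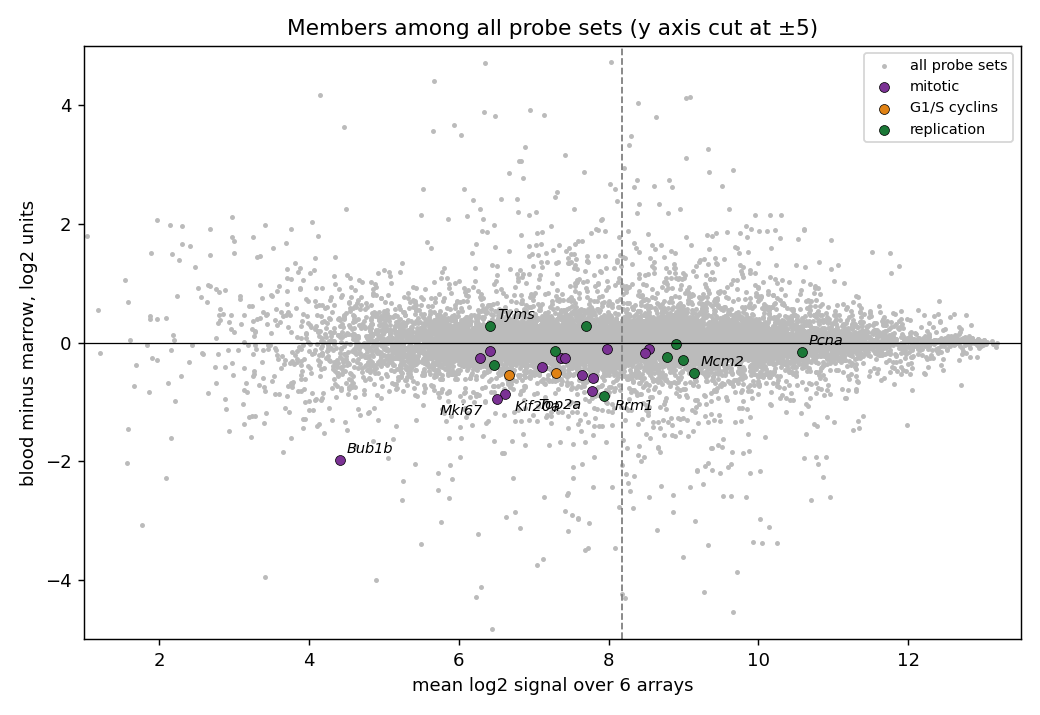
Mean log2 signal over 6 arrays (x axis) against the blood minus marrow difference in log2 units (y axis, cut at -5 and 5) for all probe sets in grey and for the 26 genes in colour by class. The dashed line is the table median of 8.18. The coloured points lie mostly below 0 and left of the dashed line, within the cloud of other probe sets.

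One marrow culture stood apart for these genes. The marrow array of rat S5 was the highest of the 6 arrays for 22 of 26 genes, among them 13 of 14 mitotic, 7 of 10 replication and both G1/S cyclin genes, against 21.3% of all probe sets and 22.8% of those below the filter. That count was 21 or 22 after each other scaling of the arrays. On it 12 of the 26 genes were above the table median, compared with 8 and 9 on the other marrow arrays and 7 on each blood array. Taken as deviation from each gene's mean, mitotic genes had a median of 0.15, 0.69 and -0.17 on the marrow arrays of rats S4, S5 and S6 and of -0.23, 0.04 and -0.27 on the blood arrays. The marrow array of rat S6 thus lay at the level of the blood arrays for mitotic genes. Replication genes showed a narrower spread, at 0.04, 0.44 and -0.10 on marrow arrays and -0.13, -0.08 and -0.18 on blood arrays.

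**Figure D4:**
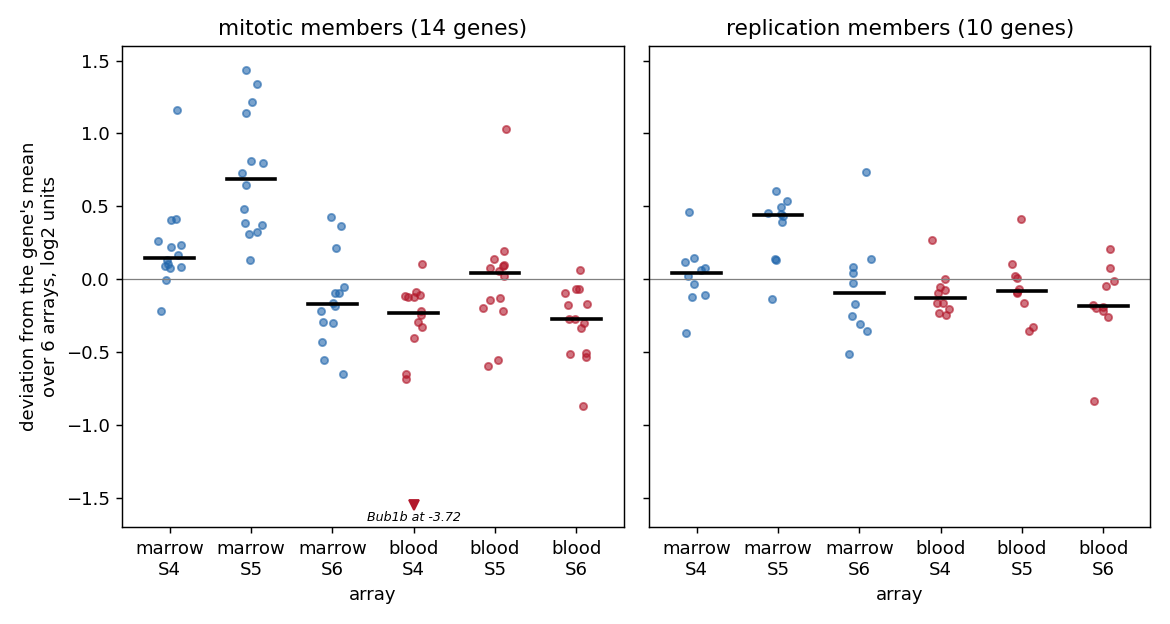
Deviation of each gene from its own mean over 6 arrays, in log2 units, for 14 mitotic genes (left) and 10 replication genes (right) on each array; black bars are medians. The marrow array of rat S5 has the highest median in both panels, 0.69 and 0.44. One value outside the axis, Bub1b at -3.72, is marked by a triangle.

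Without rat S5, 20 of 26 genes still had a mean difference below 0, among them 11 of 14 mitotic and 7 of 10 replication genes, and the class medians were -0.225 and -0.1325. Without the marrow array of rat S5 alone, the counts were 19 of 26, 11 of 14 and 6 of 10, with medians of -0.15 and -0.11. That comparison took the mean of all blood arrays less the mean of the other marrow arrays, so it was not paired by rat. In it the genes whose mean moved from below to above 0 were Ccnb2 (0.05), Plk1 (0.185), Aurka (0.19), Mcm3 (0.04) and Tk1 (0.19). The shares of all probe sets below 0 were not counted without rat S5 or without this array. The medians of mitotic genes were -0.385 without rat S4 and -0.5775 without rat S6, and those of replication genes -0.245 and -0.2825. Both arrays of a rat were run on the same fluidics station, rats S4 and S5 on one and rat S6 on the other, so each within-rat difference is also within a station.

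All 11 stromal marker genes on the array passed the filter, while 0 of 4 endothelial genes, 1 of 5 lymphocyte genes and 1 of 3 erythroid and platelet genes did. Of the macrophage markers 7 of 11 passed and of the pan-leukocyte markers 4 of 6, and no gene of these lists was at 0 on any array. Of the 11 stromal genes 1 rose, 0 fell and 10 did not pass. Eng, the TGF-beta co-receptor endoglin, rose by 1.62 ± 0.23 (limma adjusted p = 0.038), a call lost without the filter (limma adjusted p = 0.116) and without rat S4. By mean difference 6 of the 11 lay above 0 and 5 below it. Several stromal genes that did not pass had wider differences than most division genes. The surface enzyme gene Nt5e was higher in the blood culture of each rat, at 0.71, 1.09 and 0.52, with a mean of 0.77 ± 0.15 (limma adjusted p = 0.0862). Pdgfra, a growth factor receptor, was lower in the blood culture of each rat, most in rat S4 at -2.99, with a mean of -1.93 ± 0.35 (limma adjusted p = 0.0681). In the rat order S4, S5, S6 the matrix proteoglycan genes Lum and Dcn differed by -3.90, 0.20 and -2.09 and by -2.02, 0.06 and -2.19, and the surface protein gene Thy1 by -2.36, 1.74 and -2.43 (limma adjusted p = 0.315, 0.250 and 0.715). For these 3 genes rats S4 and S6 thus lay on one side of 0 and rat S5 on the other. The collagen gene Col1a1 was at 12.62, 12.32 and 12.69 in marrow and 13.02, 12.99 and 13.02 in blood cultures. The summed linear signal of the 11 stromal genes was 40478 to 45975 in marrow and 35997 to 47368 in blood cultures. The summed linear signal of the 11 macrophage genes was 5856, 8640 and 10201 on marrow arrays of rats S4, S5 and S6 and 10084, 8810 and 9812 on blood arrays. The 3 arrays with the lowest sums were also the 3 with the highest mitotic medians. The range was thus 5856 to 10201 in marrow and 8810 to 10084 in blood cultures, and that of the 6 pan-leukocyte genes 2125 to 3374 and 3453 to 4057. The pan-leukocyte sums did not share the match with mitotic medians. Their lowest 3 were all on marrow arrays, at 2125, 3149 and 3374 in rats S4, S5 and S6. The median difference of macrophage genes was 0.43 in rat S4 and 0.00 and -0.07 in rats S5 and S6. The 3 median differences of pan-leukocyte genes were 1.035, 0.045 and 0.03. The part of these cells, and of the stromal shifts, in the differences of division genes was not tested.

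Other cell cycle genes were read from lists set by function, also with earlier results of these data known. Of 34 genes of origin licensing and the replication fork on the array 12 were tested and 0 passed. The median difference of the 34 was -0.12, and 23 lay below 0, against 50.7% of all probe sets. In the blood culture of every rat 9 of the 34 were lower and 1 was higher, against 17.1% and 14.5% of all probe sets. Rpa3, a subunit of the single-strand binding protein, was at 8.52, 8.65 and 8.62 in marrow and 8.0, 8.10 and 7.90 in blood cultures. These groups did not overlap, and the difference was -0.60 ± 0.12 (limma adjusted p = 0.092). Dnmt1, which copies DNA methylation behind the fork, differed by -0.34, -0.44 and -0.39 (limma adjusted p = 0.213), and the polymerase subunit Pold1 by -0.39, -0.25 and -0.19 in that order of rats.

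Of 30 spindle, kinetochore and cytokinesis genes on the array 8 were tested and 0 passed. Their median was -0.09, and 20 of 30 lay below 0, against 50.7% of all probe sets. The medians by rat were -0.21, -0.28 and 0.055. Cdca8, a subunit of the chromosomal passenger complex, differed by -0.67, -0.65 and -0.24, Dlgap5, a spindle protein, by -1.25, -1.10 and -0.04, and Racgap1, a cytokinesis regulator, by -1.50, -1.20 and 0.12. These 3 genes, which had the smallest p of the list, were below the filter (limma adjusted p = 0.318, 0.391 and 0.456 without it). In every rat 6 of the 30 genes were lower in the blood culture and 4 were higher, near the 17.1% and 14.5% of all probe sets. The 4 higher genes were Zwint, Cenpm, Trip13 and Cdca3, which are named here after their values were seen. Zwint, a kinetochore protein, differed by 0.86, 0.08 and 0.37 (limma adjusted p = 0.361), and Cenpm, a centromere protein below the filter, by 0.29, 0.12 and 0.87 (limma adjusted p = 0.514 without it). Trip13 and Cdca3 had mean differences of 0.05 and 0.03. The marrow array of rat S5 was the highest for 18 of these 30 genes and for 15 of the 34 licensing and fork genes, against 21.3% of all probe sets. Of 8 chromatin genes of dividing cells 6 lay below 0, against 50.7% of all probe sets, and of the 4 tested 0 passed. Tmpo, a lamina protein, Hmgb1, which binds DNA, and Hmgn2, which binds nucleosomes, differed by -0.45, -0.31 and -0.23 (limma adjusted p = 0.193, 0.361 and 0.486).

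Of 18 regulators of G1 and S phase 11 were tested, 1 rose, 0 fell and 10 did not pass, where 0.984% of tested probe sets rose and 1.17% fell. Ccnd2, the D-type cyclin that responds to growth factors in G1, was at 9.83, 8.67 and 9.73 in marrow cultures of rats S4, S5 and S6 and at 11.24, 10.67 and 11.62 in blood cultures. Every blood array was above every marrow array, and the rise of 1.77 ± 0.16 passed the test (limma adjusted p = 0.00781; 0.0385 without the filter). Without rat S4 this call was lost, since limma then called 0 probe sets in all. The marrow array of rat S5, on which most division genes were highest, had the lowest Ccnd2. Myc, a growth regulator, differed by 0.61 ± 0.18 (limma adjusted p = 0.201) and the phosphatase gene Cdc25a by -0.34 ± 0.16 (limma adjusted p = 0.545 without the filter). Of 11 cell cycle inhibitor genes all 11 were tested and 0 passed. Their median difference was 0.19, with 6 above 0 and 5 below it. The marrow array of rat S5 was the lowest of 6 for 4 of them, against 12.9% of all probe sets.

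**Figure D5:**
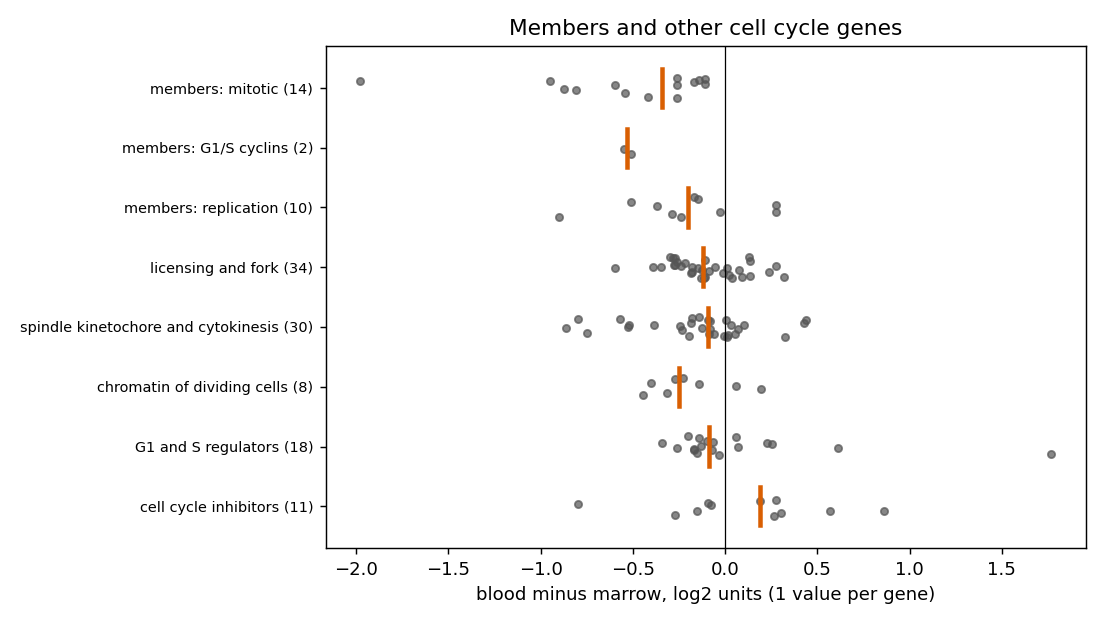
Blood minus marrow difference in log2 units, 1 point per gene, for the 3 classes of division genes and 5 other cell cycle lists, with the number of genes in brackets; orange bars are medians. The medians of mitotic, G1/S cyclin and replication genes are -0.34, -0.53 and -0.20, and the cell cycle inhibitors have a median of 0.19. The point at 1.77 is Ccnd2.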

How the data were processed

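Gene expression was measured on 6 Affymetrix RAE230A arrays, 1 per culture, from 10 µg of total RNA each, per the labels' protocols. The authors deposited 1 log2 value per probe set and array. The base of the logarithm is read from the range of the values (0 to 13.31) and is not stated. GCOS is named in the submitters' processing notes, but the sources used here do not say how probe sets were summarised, corrected or normalized. Nothing was added to the deposited values before testing. Of 15923 probe sets, 12789 had 1 gene symbol, 312 several and 2822 none, and 57 controls were removed. The 86 empty cells stayed empty, and a probe set needed 2 complete pairs.

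The 2 groups were compared two-sided in R 4.3.3 by limma 3.58.1 with Benjamini-Hochberg adjustment. The rat was a fixed term, since the design text pairs the cultures by rat. Within a rat, deviations from the group means had correlations of -0.29, 0.30 and 0.33, so the values alone do not show it. The brightest probe set over all 6 arrays, among those that passed the filter where any did, stood for a gene. The members and lists were chosen with earlier results of these data known. Per-array values are given for the 12 genes with the smallest p in the unfiltered fit and for Mki67, Top2a, Cdk1, Ccnb1, Mcm2, Mcm5, Pcna and Tyms, and for up to 3 genes per other list. Data were simulated from the means and spread of the 8113 probe sets that passed the filter with complete values. The paired fit recovered 40.2%, 86% and 97.3% of changes of 1, 2 and 4 log2 units, so most changes of 1 were missed with 3 rats. Neither smaller changes nor probe sets below the filter, where 19 of the 26 genes lay, were simulated. Other steps used numpy 2.4.6, pandas 2.3.3, matplotlib 3.10.9 and Python 3.11.15.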

Additional observations from a re-analysis of the deposited data

How the results depend on the processing

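None of the 7 division genes past the filter reached an adjusted p of 0.05 in limma under any of 12 other settings of the fit. All 26 were tested only in the setting without the filter and in 7 more, chosen after seeing the data, that combine it with another scaling, no replicate block or 1 rat left out, and 0 passed. The other 19 genes were not tested with a random block, a stricter filter, a signal offset or the mean of probe sets. The class medians stayed below 0 under all 19 settings, from -0.28 to -0.13 for replication genes and from -0.58 to -0.225 for mitotic genes. They moved by less than the spread between rats (SD 0.25 and 0.26). These medians are taken over all genes of a class, so a change of filter or replicate block alone could not move them. Only another scaling, the signal offset, the mean of probe sets or leaving out a rat could. Over all probe sets, the 175 called became 82 without the filter on signal, 107 after quantile normalization and 104 after scaling to a common trimmed mean; leaving out 1 rat gave 0 to 406, with 0 without rat S4, 406 without rat S5 and 44 without rat S6. Without the rat as a replicate block 130 were called and no call on a division gene changed. Single genes that changed sign were Ccnb2 (0.01), Plk1 (0.11) and Aurka (0.055) without rat S5, and Tk1 as the mean of its probe sets (0.0817) and on leaving out 1 rat each (-0.17 to 0.135, the latter without rat S5). Without the marrow array of rat S5 alone, a comparison not paired by rat, the same 4 genes and Mcm3 (0.04) changed sign. The cause was not tested. Fluidics station could not be fitted as a block, because each rat lies on 1 station. With 3 rats, dim probe sets and no known background, differences under 1 log2 unit are at the limit of these arrays.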

Other observations

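Among cell cycle inhibitors, Cdkn1a and Cdkn2b were lower on each of the 3 arrays with the highest mitotic medians than on any of the other 3. Both genes and this split of the arrays were picked out after the values were seen, so it is a description only. The share of all probe sets with the same split was not counted. Cdkn1a, the p53 target p21, was at 9.66 on the marrow array of rat S5, 10.25 on that of rat S4, 10.38 on the blood array of rat S5, 10.90 on the marrow array of rat S6, and 11.13 and 11.01 on the blood arrays of rats S4 and S6. In the same order the median deviations of mitotic genes were 0.69, 0.15, 0.04, -0.17, -0.23 and -0.27. Cdkn2b, the kinase inhibitor p15, was at 6.53, 6.75 and 6.96 on the first 3 of these arrays and at 8.58, 8.63 and 8.86 on the other 3. The summed linear signal of the 11 macrophage genes was 8640, 5856 and 8810 on the first 3 and 10201, 10084 and 9812 on the other 3. That of the 6 pan-leukocyte genes did not split in this way, at 3149, 2125 and 3453 and at 3374, 4057 and 3489. The first 3 arrays were 2 marrow cultures and 1 blood culture, and the other 3 were 1 marrow culture and 2 blood cultures.

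Neither inhibitor passed between blood and marrow cultures in limma, with differences of 0.57 ± 0.18 and 0.86 ± 0.33 (adjusted p = 0.241 and 0.321). Cdkn1c, another inhibitor, did not share the order, at 8.07, 8.66 and 8.87 on the first 3 arrays and 9.40, 7.36 and 7.50 on the other 3. Cdkn1b, Btg1, Ccng2, Cdkn2c and Gadd45a also overlapped between the first 3 and the other 3 arrays. Cdkn2a, Ccng1 and Tob1 were lower on each of the first 3 than on any of the other 3. The split of Cdkn1a and Cdkn2b was thus shared by Cdkn2a, Ccng1 and Tob1, and not by the genes of the list that overlapped. The split was seen in these 6 arrays only and was not tested.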
